A study of Mus musculus with 2 samples.

Results

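Replication-dependent histone genes make the histones that package newly copied DNA, and short pieces of their mRNAs were counted in small RNA libraries of fetal mouse liver. The genes were chosen by name: every read listed in the mRNA (RefSeq) class under a symbol that starts with Hist1h, Hist2h, Hist3h or Hist4h. This gave 62 of 16128 RefSeq symbols, with 5700 distinct read sequences and 7899 reads over both libraries. The livers came from B6/129 fetuses at E18.5, late in gestation. One library was from wild type and the other from Ago2ADH, in which Argonaute 2, the Argonaute that can cut RNA paired to its guide, carries no catalytic activity. Total RNA of 19 to 30 nt was cut from a gel, ligated to adapters, amplified and sequenced. The labels do not say how many fetuses or livers went into a library.

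Replication-dependent histone mRNAs end in a conserved stem-loop in place of a poly(A) tail. The stem-loop-binding protein SLBP holds that end, and the U7 small nuclear ribonucleoprotein (snRNP) pairs with a purine-rich histone downstream element (HDE) just past it to guide the cut that makes the 3′ end. When DNA synthesis stops, the mRNAs are trimmed at the stem-loop, uridines are added and removed there, and the mRNAs are degraded. Late fetal liver holds hepatocytes together with dividing blood-forming cells.

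Each genotype has a single library, so differences between them could not be checked against replicates and carry no p-value. All intervals are exact 95% intervals that cover counting error only, since reads were amplified by PCR without molecular identifiers. The wild type library held 7599870 reads and the Ago2ADH library 7046197. Fragments of the RefSeq class made up 12.7% and 12.01% of them. A count of 3 corresponds to 0.395 RPM (reads per 1000000 of all reads) in wild type and 0.426 RPM in Ago2ADH. Fragments of the targeted gene, listed under its older symbol Eif2c2, numbered 229 and 318, which does not check the genotype, since a change of the catalytic site need not alter the count.

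The 6 most-read histone sequences and the most-read one of an H4 gene fell in 3 places: across the stem-loop, just past it, and near the start of the coding sequence. They are shown because the results below turn on those places. Capitals mark the bases of the stem-loop in these reads, written 5′ to 3′ as cDNA, with the symbol under which the authors list each.
Hist2h2bb: GCTCTTTTCAGAGCCact
Hist1h2ai: caaaGGCTCTTTTCAGAGCCact
Hist2h2bb, shorter by 1 base: CTCTTTTCAGAGCCact
Hist1h3f: GCTCTTTTAAGAGCCa
Hist1h1c: aagagctgtgacatttgt
Hist4h4: gaaaggagctgtggacatttgt
Hist1h3h: ctcgtactaagcagaccg
The first had 27 wild type and 19 Ago2ADH reads, the highest count of any histone sequence, and it matches the genome at 4 places. This read and the next 2 match the annotated Hist1h2bh transcript exactly, although they are listed under other symbols. The second had 16 and 10 reads and 3 genome matches, and the third had 11 and 11 reads and 4 matches. The Hist1h3f read, from a stem-loop with another loop base, had 9 and 11 reads and 10 matches. The Hist1h1c read had 15 and 7 reads and 1 match, at chr13:23739541-23739558 on the plus strand (GRCm38). The Hist4h4 read had 6 and 5 reads and 1 match, at chr6:136803964-136803985 on the minus strand. The Hist1h3h read, from the coding sequence, had 6 and 13 reads and 9 matches. Other sequences with more reads than that of Hist4h4 lay in the same places, apart from one listed under Hist2h2aa1 in the 5′ untranslated region with 9 and 5 reads. No histone sequence reached 100 reads, the minimum for calling a distinct read. Of the 388 RefSeq sequences that did, 13.7% were called lower and 5.15% higher in Ago2ADH.

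Histone fragments were therefore many sequences with few reads each. Of the 5700 distinct reads, 4406 were seen once and 398 were seen in both libraries. Lengths ran from 15 to 33 nt with a median of 21 nt in either library. Histone genes come in near-identical copies, and this shows in the mapping: 40.9% of histone reads matched the genome once, against 68.8% of all RefSeq reads. The authors list each read under 1 symbol, so a symbol with few one-match reads stands for a family of copies. Hist1h4j had 560 reads, but only 32 of them matched once.

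Summed over all 62 genes, histone fragments numbered 4433 in wild type and 3466 in Ago2ADH. This is 583.3 RPM (566 to 601) and 491.9 RPM (476 to 509), a log2 ratio of Ago2ADH to wild type of -0.25 (-0.31 to -0.18). The sum over all RefSeq reads had a log2 ratio of -0.09, and histone reads were 0.458% and 0.410% of them. The histone sum was lower in the Ago2ADH library by more than counting error, but far from the 2-fold limit used for a call. Reads with 1 genome match gave -0.22 (1796 and 1432 reads), those with 2 to 9 matches -0.24 (1472 and 1154 reads) and those with 10 or more -0.30 (1165 and 880 reads). The sum was thus similar in size whether the reads were unique or shared among copies.

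The linker histone H1 joins neighbouring nucleosomes, and H2A, H2B, H3 and H4 form the nucleosome core. The 6 H1 genes gave 906 reads in wild type and 686 in Ago2ADH, or 119 and 97.4 RPM, with a log2 ratio of -0.29 (-0.44 to -0.15). The 17 H2A genes gave 986 and 771 reads (-0.25, -0.38 to -0.11). The 16 H2B genes gave the most, 1164 and 864 reads (-0.32, -0.45 to -0.19). These ratios lay close together.
The 11 H3 genes gave 664 and 509 reads (-0.27, -0.44 to -0.11). The 12 H4 genes gave 713 and 636 reads, and their log2 ratio of -0.06 (-0.21 to 0.10) was the only one of the 5 types whose interval reached 0. The difference between H4 and the other types was not tested, and the H4 interval overlaps each of theirs. With one-match reads only, H2A and H3 also had intervals that reached 0 (-0.08, -0.38 to 0.21, and -0.10, -0.41 to 0.21). The one-match value was -0.28 for H1 and -0.34 for H2B, and both intervals stayed below 0.

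By genomic cluster, the 49 Hist1 genes on chromosome 13 gave 3347 and 2658 reads (-0.22). The 9 Hist2 genes on chromosome 3 gave 728 and 530 (-0.35), and the 3 Hist3 genes on chromosome 11 gave 300 and 245 (-0.18). Hist4h4, the only member on chromosome 6, gave 58 and 33 (-0.70, -1.37 to -0.06). All 4 clusters were lower in Ago2ADH, and the Hist3 interval (-0.43 to 0.07) reached 0. Reads with 1 genome match were 45.4% of those of Hist1, 30.1% of Hist2, 6.97% of Hist3 (20 and 18 reads) and 95.6% of Hist4h4. The cluster of the other reads rests on the symbol under which they are listed.

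**Figure D1:**
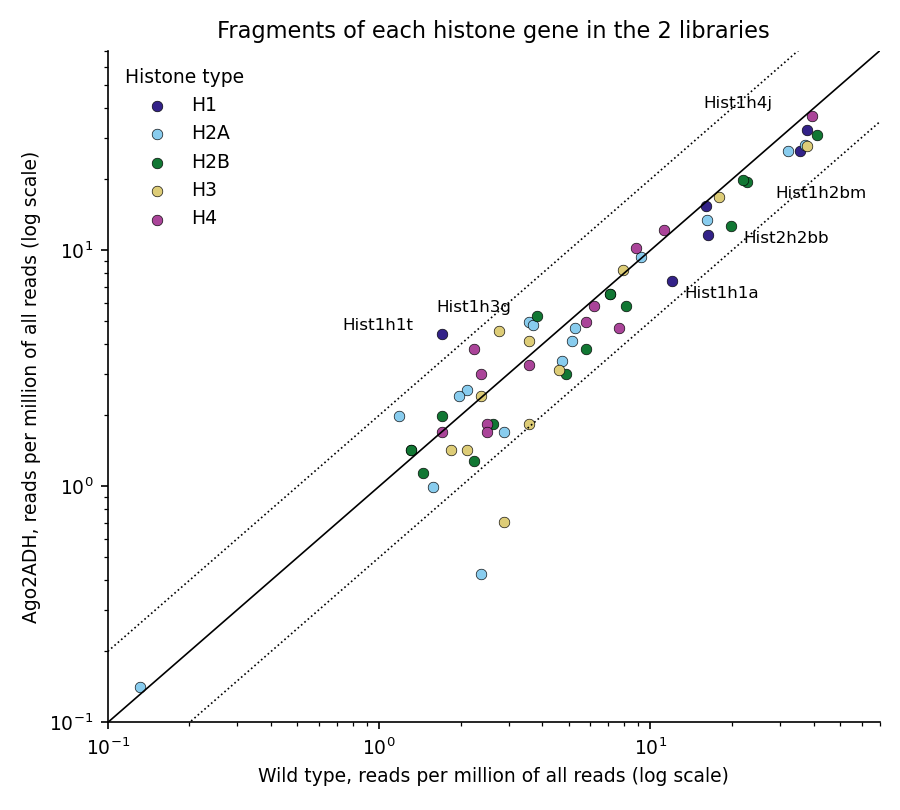
Each point is a histone gene, with its RPM in wild type (x) and in Ago2ADH (y), both on log axes and coloured by histone type; the solid line is equality and the dotted lines are 2-fold differences. Genes with many reads lie between the dotted lines, from Hist1h1a at 11.97 and 7.38 RPM to Hist1h2bm at 41.2 and 30.7 RPM; Hist1h2aa, with 3 wild type and 0 Ago2ADH reads, is not drawn.

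At the level of single genes, 22 of the 62 had the 100 reads needed for a call. None of the 22 was called, meaning a ratio of at most 0.5 or at least 2 with an interval that excludes equality. Of the 3329 RefSeq symbols with 100 reads, 0.511% were called lower and 0.391% higher, so 0 of 22 is near the background in either direction. The 22 log2 ratios ran from -0.70 to 0.21, with a median of -0.22 against 0.004 over the 3329 symbols. They were below 0 for 18 genes and above 0 for 4. The interval lay wholly below 0 for 8 of the 22, where 9.31% of all tested symbols did so, and wholly above 0 for none, where 10.3% did.

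Among H1 genes, Hist1h1c (chr13:23738808-23740367, plus strand) had 286 reads in wild type and 227 in Ago2ADH (-0.22, -0.48 to 0.03). Its reads are nearly all its own, since 87.7% match the genome once. Hist1h1d had 270 and 186 reads (-0.43, -0.71 to -0.15), and Hist1h1e had 122 and 108 (-0.07, -0.45 to 0.32). Hist1h1a had the lowest ratio of the 22, with 91 reads against 52 (-0.70, -1.22 to -0.19), and its one-match reads gave -0.68. Hist1h1b had 124 and 82 reads (-0.49, -0.91 to -0.07).
The H1 genes with 100 reads thus ran from near equality to -0.70, short of the 2-fold limit. Hist1h1t, the testis H1, had only 13 and 31 reads (1.36), too few for a call at the minimum of 100 reads. Of its 44 reads, 42 lay in the 3′ untranslated region, and 4 of the 44 matched the genome once. Its most-read sequence, GCTCTTTTAAGAGCCact, with the stem-loop in capitals, had 7 and 7 reads and 2 genome matches. Hist1h1t and Hist1h1b were named after their values were seen.

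The H2A gene with most reads was Hist2h2aa1, with 282 in wild type and 197 in Ago2ADH (-0.41, -0.68 to -0.14), followed by Hist1h2ai with 245 and 186 (-0.29, -0.57 to -0.01) but 9 and 10 one-match reads. Only 2.71% of the Hist2h2aa1 reads matched once. Among H2B genes, Hist1h2bm had 313 and 216 reads (-0.43, -0.68 to -0.17), but its 35 one-match reads were 16 and 19. Hist1h2bn had 172 and 137 reads (-0.22) and Hist3h2ba had 167 and 140 (-0.15), both with intervals that include 0. Hist2h2bb had 151 and 89 (-0.65, -1.05 to -0.27), and its one-match reads, 94 and 51, gave -0.77. Hist2h2bb was therefore lower in Ago2ADH also where its reads could be told from other copies, while the one-match value of Hist1h2bm was 0.36 (-0.68 to 1.41).

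Among H3 genes, Hist1h3h had 288 reads in wild type and 194 in Ago2ADH (-0.46, -0.73 to -0.19) and Hist2h3c1 had 136 and 119 (-0.08). Among H4 genes, Hist1h4j had 299 and 261 (-0.09) and Hist1h4m had 85 and 86 (0.13). The 32 one-match reads of Hist1h4j were 23 and 9. Of genes with 50 to 99 reads, the lowest ratios were those of Hist1h2bj (37 and 21 reads, -0.71) and Hist4h4, given above. The highest were Hist1h3g (21 and 32, 0.72), Hist1h2ak (27 and 35, 0.48) and Hist1h2be (29 and 37, 0.46), and the intervals of these 3 all include 0. With a minimum of 20 reads, Hist1h2ac (18 and 3 reads) and Hist1h3c (22 and 5 reads) would be called lower and Hist1h1t higher. Both of the former were named after their values were seen. The share of all RefSeq symbols called at that minimum was not computed.

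Reads were placed on the histone transcripts of GENCODE M21 (GRCm38) by exact match to the sense strand. A place was found for 3880 of the 4433 wild type reads (87.5%) and 2980 of the 3466 Ago2ADH reads (86.0%). Reads antisense to a histone transcript were rare, 67 and 53, or 1.51% and 1.53%. Of the placed reads, 72.3% (70.9 to 73.7) in wild type and 69.6% (67.9 to 71.2) in Ago2ADH lay in the coding sequence. The 5′ untranslated region held 8.76% and 8.46%. The 3′ untranslated region held 18.9% (17.7 to 20.2) and 21.98% (20.5 to 23.5).
The fragments thus came from the whole mRNA and nearly all from its sense strand. Their ratios differed by place: coding reads numbered 2807 and 2073 (log2 ratio -0.33, -0.41 to -0.25) and 5′ untranslated reads 340 and 252 (-0.32, -0.56 to -0.08). Reads of the 3′ untranslated region numbered 733 and 655 (-0.05, -0.21 to 0.10). The coding interval and the 3′ interval do not overlap, and this difference was not tested across animals.

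The stem-loop motif was searched on the sense strand of transcripts as GG, any 2 bases, CTTTTNAG, any 2 bases and CC, where N is any base. It was found for 43 of the 67 protein-coding histone symbols of the annotation, 21 to 58 nt (median 31) past the stop codon. Several of the other models stop short of the 3′ end. Outside the histone genes, 28 of 21810 protein-coding symbols (0.128%) held it. The narrower form with C in the loop place was in 34 histone symbols, and reads that overlap it were 7.09% of placed wild type reads and 8.42% of placed Ago2ADH reads (275 and 251 reads). Among placed reads with 1 genome match, the shares that overlap this narrower form were 3.47% and 5.58%. With any base in the loop place the shares of all placed reads were 8.53% and 10.7%.

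Stem-loop reads were also taken by sequence alone, as histone reads that hold bases 5 to 12 of the motif and pair in the stem. There were 314 in wild type and 329 in Ago2ADH, or 41.3 and 46.7 RPM, with a log2 ratio of 0.18 (-0.05 to 0.40). They were 7.08% (6.35 to 7.88) of histone reads in wild type and 9.49% (8.54 to 10.5) in Ago2ADH. Histone reads without the stem-loop core numbered 4119 and 3137, with a ratio of -0.28 (-0.35 to -0.22). The lower sum in Ago2ADH was thus in reads from the body of the mRNAs, and the stem-loop reads were not lower. By the type of the listed symbol, stem-loop reads numbered 21 and 43 for H1, 52 and 48 for H2A, and 175 and 159 for H2B. Those for H3 numbered 46 and 46, and those for H4 20 and 33. Only 19.97% of reads that overlap the stem-loop match the genome once, so the type of most is uncertain. The most-read Hist1h2ai sequence (16 and 10 reads), counted here as H2A, matches the transcript of Hist1h2bh, an H2B gene. In RPM the stem-loop reads listed under H1 genes were higher in Ago2ADH (log2 ratio 1.14, 0.36 to 1.97). Hist1h1t weighs on this value, with 12 and 30 reads in its 3′ untranslated region, of which 0 and 4 matched the genome once. The higher value is thus not shown to be a trait of H1 mRNAs. The stem-loop reads of H4 gave 0.83 (-0.01 to 1.71) and those of H3 0.11 (-0.51 to 0.73). H1, H3 and H4 each had under 100 such reads. The H2A and H2B counts were nearly equal in RPM (log2 ratios -0.01 and -0.03). The higher share in Ago2ADH also reflects the lower count of reads without the core.

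**Figure D2:**
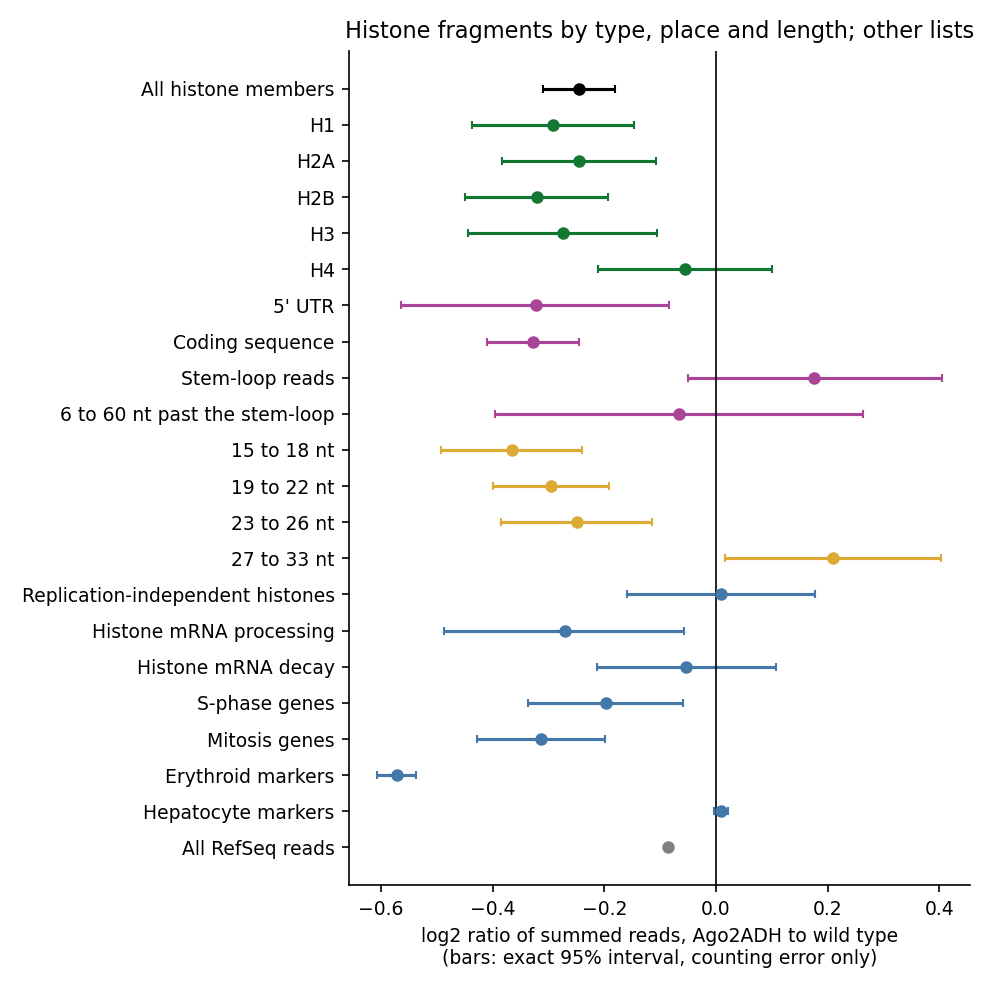
The log2 ratio of summed reads in Ago2ADH to wild type (x, scaled to all reads, bars are exact 95% intervals for counting error only) for all histone members, each type, place on the mRNA, read length, and other gene lists. Coding reads (-0.33) and reads of 15 to 18 nt (-0.37) lie to the left, stem-loop reads (0.18) and reads of 27 to 33 nt (0.21) to the right; the interval of all RefSeq reads is narrower than its point.

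The 3′ ends of the stem-loop reads were sharply placed, which is shown because mature histone mRNA ends a few nucleotides past the stem-loop. Ends 1 to 3 nt past it made up 82.5% of stem-loop reads in wild type (259 of 314) and 82.4% in Ago2ADH (271 of 329). Reads ending 3 nt past were most frequent, 147 (46.8%, 41.2 to 52.5) and 128 (38.9%, 33.6 to 44.4). Those ending 1 nt past numbered 66 (21.02%) and 83 (25.2%), and those ending 2 nt past 46 (14.6%) and 60 (18.2%). Ends 4 nt past numbered 25 and 20. The libraries shared this pattern, and the intervals of each position overlap between them.
The 5′ ends were clustered too. Stem-loop reads began most often 4 bases before the motif (61 and 54 reads) and on motif base 2 (60 and 50) or base 3 (56 and 43). None began on the motif's first base or the base before it. Over every annotation class, 2 of the 407 wild type stem-loop reads and 0 of the 452 from Ago2ADH did, and what leaves this gap was not tested.

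Most reads ending 3 nt past the stem-loop ended in T, which is U in the RNA. This was 105 of 147 in wild type (71.4%, 63.4 to 78.6) and 92 of 128 in Ago2ADH (71.9%, 63.2 to 79.5). The others ended in C, apart from 2 reads in G. In the annotated transcripts, the base 3 nt past the stem-loop is C for 34 of 43 genes, T for 7, A for 1 and G for 1. Counted as distinct sequences the T share was 45.9% and 50%, so it rests on a few T-ended sequences with many reads. The T share did not differ between the libraries beyond counting error.

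The same read can be followed with nothing added, with C and with T. The sequences are shown because they differ by that single last base, with the stem-loop bases in capitals.
2 nt past: caaaGGCTCTTTTCAGAGCCac
3 nt past, C: caaaGGCTCTTTTCAGAGCCacc
3 nt past, T: caaaGGCTCTTTTCAGAGCCact
The form ending 2 nt past matches the genome at 32 places and had 4 wild type and 6 Ago2ADH reads. The C form matches at 25 places and had 6 and 2 reads. The T form matches at only 3 places and had 16 and 10 reads. For the shorter read GCTCTTTTCAGAGCCac, with 42 matches and 7 and 7 reads, the C form GCTCTTTTCAGAGCCacc (32 matches) had 0 and 1 reads, and the T form GCTCTTTTCAGAGCCact (4 matches) had 27 and 19. The counts that follow go beyond the histone rows and take in reads of other annotation classes and reads without a genome match. Of 22 sequences seen with both endings, 19 had fewer genome matches for the T form, none had more and 3 had equal numbers. In 7 the T form had no genome match. The T form had more reads in 13, fewer in 5 and as many in 4, for 194 T reads against 61 C reads in all. A read that ends in T and matches a gene with T at that place may come from that gene or from another with T added, and these cannot be told apart from its sequence.

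Reads that match nowhere in the genome, and that the authors therefore list under no gene, bear on that directly. Of those that hold the whole stem-loop and end 3 nt past it, 35 ended in T (13 in wild type and 22 in Ago2ADH), 1 in A, 2 in C and none in G. The 35 were 23 distinct sequences, and 15 of these, with 24 reads, were an annotated histone transcript up to the last base, followed by T. An example is ctaacccaaaGGCTCTTTTCAGAGCCact, with the stem-loop in capitals, which had 0 and 3 reads and no genome match. For comparison, the 7256 histone reads outside the stem-loop were looked up with 1 extra 3′ base among reads without a genome match. There, A was the extra base in 52 reads, C in 1, G in none and T in 3. For the 106 stem-loop reads ending 2 nt past, T was the extra base in 6, A in 1, and C and G in none. Among these unmatched reads, the extra base was thus most often T at the stem-loop, on few reads, and most often A elsewhere on histone mRNAs. An extra base that matches the genome is not counted here. At 3 nt past the stem-loop that base is C for 34 of 43 annotated genes, so few C reads could appear. Sequencing errors at the last base, and sequence differences of the B6/129 fetuses from the genome used, were not separated from added bases.

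**Figure D3:**
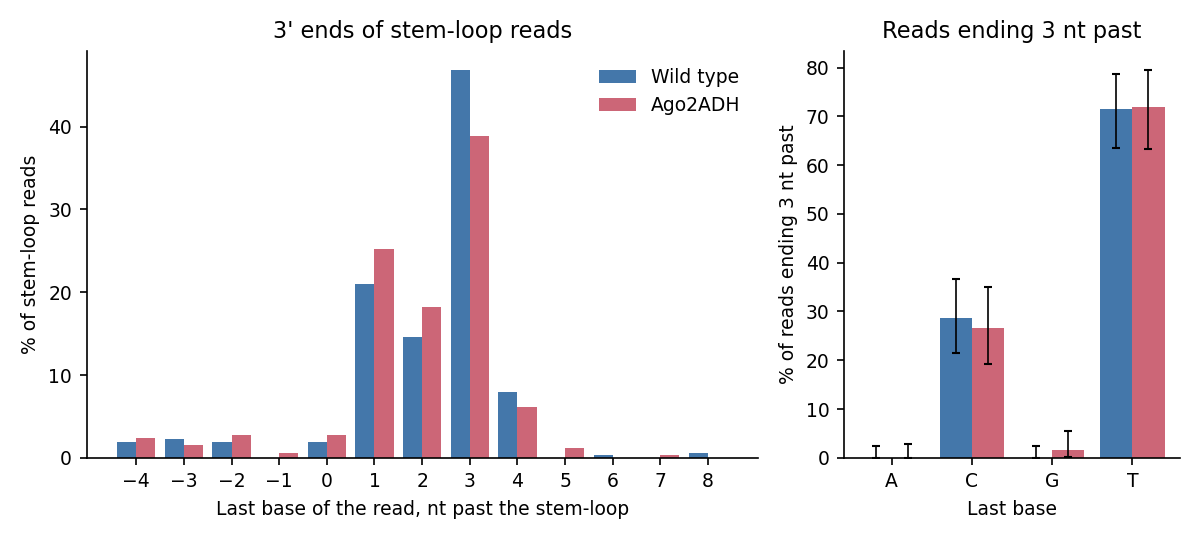
Left, the share of stem-loop reads (y, percent) by the position of their last base past the stem-loop (x, nt) in wild type (314 reads) and Ago2ADH (329 reads); right, the last base of the reads that end 3 nt past it, with exact 95% intervals. Ends gather 1 to 3 nt past the stem-loop in both libraries, and T ends 71.4% and 71.9% of the reads at 3 nt.

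A second stack of reads lay just beyond the 3′ end of mature histone mRNA, where the HDE is found. Reads that begin 11 to 15 nt past the stem-loop numbered 112 in wild type and 110 in Ago2ADH. Those beginning 6 to 10 nt past numbered 27 and 21, and those 16 to 20 nt past 21 and 14. Between 21 and 60 nt past there were 6 and 2 in all. In 20 genes with over 160 nt of annotated sequence past the stem-loop, the stretch of 6 to 60 nt held 277 reads in 1100 nt (25.2 per 100 nt). The sequence beyond it held 87 reads in 21430 nt (0.406 per 100 nt).
Reads starting 6 to 60 nt past the stem-loop numbered 166 and 147 in all, or 21.8 and 20.9 RPM (log2 ratio -0.07, -0.40 to 0.26). Those starting further away numbered 53 and 34 (-0.53, -1.20 to 0.12). The stack did not differ between the libraries beyond counting error. Of its reads, 92.7% match the genome once, against 19.97% of reads that overlap the stem-loop, so most can be assigned to genes.

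Hist1h1c gave the most of these reads, 71 from wild type against 74 from Ago2ADH, and the other genes together gave 95 and 73. Hist4h4 gave 27 and 16, Hist1h1e 9 and 12, Hist1h1d 11 and 8, Hist1h4j 11 and 2, and Hist1h4c 4 and 7. Reads were found for 17 of the 28 genes with 40 nt of annotated sequence past the stem-loop. The 17 genes included 3 of H1, 6 of H4, 3 of H3, 3 of H2A and 2 of H2B, and each of the H3, H2A and H2B genes gave 8 reads or fewer over both libraries. Hist1h1c made up nearly as many of the reads as all the other genes together.

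The most-read sequence of this stack is shown for each of the 6 genes that gave most of its reads, with the start of the mouse U7 small nuclear RNA (Rnu7). The reads are from the deposited table and U7 is from the GENCODE M21 transcripts. Capitals mark the longest run in each read that is complementary to the first 20 bases of U7, and in U7 the bases that pair with the Hist1h1c read.
Hist1h1c: AAGAGCTGTgacatttgt
Hist4h4: gaaagGAGCTGTggacatttgt
Hist1h1e: AAAAGAGCTGTtgcacattca
Hist1h1d: AAAAGAGCTGagcctttttc
Hist1h4j: agAAGAGCTGacgcttgtt
Hist1h4c: aggagttgttCACTTac
U7: aagtgttACAGCTCTTttag
The Hist1h1c read starts 14 nt past the stem-loop, which lies at chr13:23739512-23739527, and pairs over 9 bases with bases 8 to 16 of U7. The Hist4h4 read starts 13 nt past its stem-loop at chr6:136803998-136804013 and pairs over 7 bases. The Hist1h1e read (0 and 3 reads, chr13:23621745-23621765, minus strand) pairs over 11 bases. The Hist1h1d read (1 and 2 reads, chr13:23555819-23555838, plus strand) pairs over 10 bases and the Hist1h4j read (4 and 1 reads, chr13:21735467-21735485, plus strand) over 8. The Hist1h4c read (0 and 2 reads, chr13:23698058-23698074, minus strand) stood apart, with a run of only 5 bases, opposite bases 1 to 5 of U7. All 6 match the genome once.
The letters GAGCTG, read on the sense strand, were in 75.7% of the reads that start 6 to 60 nt past the stem-loop, in 2.83% of coding reads and in none that start further away. The longer GAGCTGT, which contains GAGCTG, was in 65.5%, with none among coding reads. In the annotated transcripts, 12 of the 28 windows of 40 nt past the stem-loop (42.9%) were complementary to the start of U7 over 7 or more bases. Of 635 coding windows of the same length, 2 were (0.315%). Such a match describes the letters and does not show that U7 was bound. Fragments of U7 itself, listed in the repeat class, numbered 2136 in wild type and 1914 in Ago2ADH.

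**Figure D4:**
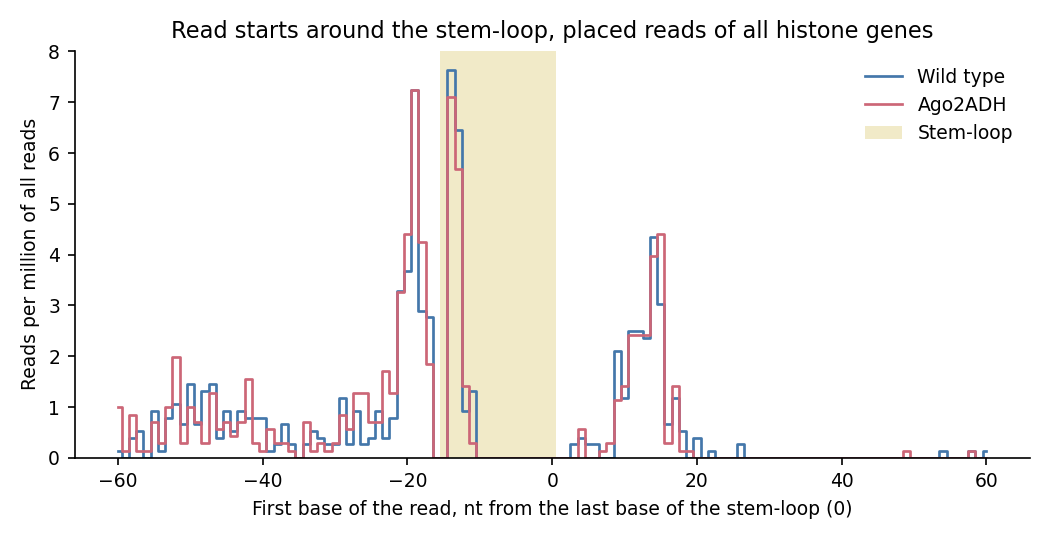
Read starts in RPM (y) by the distance of the first base from the last base of the stem-loop (x, nt, position 0), for histone reads placed on transcripts with a stem-loop; the shaded band is the stem-loop. Starts gather just before and at the start of the stem-loop, and again 11 to 15 nt past it (112 and 110 reads), with few in between, and a gap at the left edge of the band.

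Within the H1 genes density along the mRNA could be compared per length. In Hist1h1c the 5′ untranslated region (41 nt) had 39.0 one-match reads per 100 nt over both libraries, the coding sequence (639 nt) 32.7 and the 3′ untranslated region (880 nt, which contains the stack past the stem-loop) 24.3. In Hist1h1e these densities were 65.6, 19.7 and 2.89, with a 3′ untranslated region of 1209 nt. The coding densities of Hist1h1d (17.9) and Hist1h1a (14.02) were near that of Hist1h1e. Hist1h1c thus had the highest coding density of the H1 genes in one-match reads, while with all reads Hist1h1d (50.8) was above Hist1h1c (39.9). Its 5′ untranslated reads numbered 17 in wild type and 3 in Ago2ADH, and its coding reads 144 and 111. Those of the 3′ untranslated region numbered 117 and 108, so the counts of this gene were nearest to each other in the 3′ untranslated region.

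Read length differed between the libraries. With 1 library per genotype, a genotype difference cannot be told apart from one in library preparation, such as the gel cut of 19 to 30 nt. Reads of 15 to 18 nt lie below that cut. Histone reads of 15 to 18 nt numbered 1222 in wild type and 879 in Ago2ADH (log2 ratio -0.37, -0.49 to -0.24), those of 19 to 22 nt 1760 and 1330 (-0.30) and those of 23 to 26 nt 1023 and 798 (-0.25). Reads of 27 to 33 nt numbered 428 and 459 (0.21, 0.02 to 0.40). The longest class thus made up 9.65% (8.80 to 10.6) of histone reads in wild type and 13.2% (12.1 to 14.4) in Ago2ADH. Over all RefSeq reads the log2 ratios of the same classes were -0.25, -0.12, 0.01 and 0.02, so their 23 to 26 nt reads did not share the lower histone value. RefSeq reads of 27 to 34 nt were 21.2% and 22.9%. Among stem-loop reads, 12 of 314 (3.82%) and 30 of 329 (9.12%) were 27 nt or longer.

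**Figure D5:**
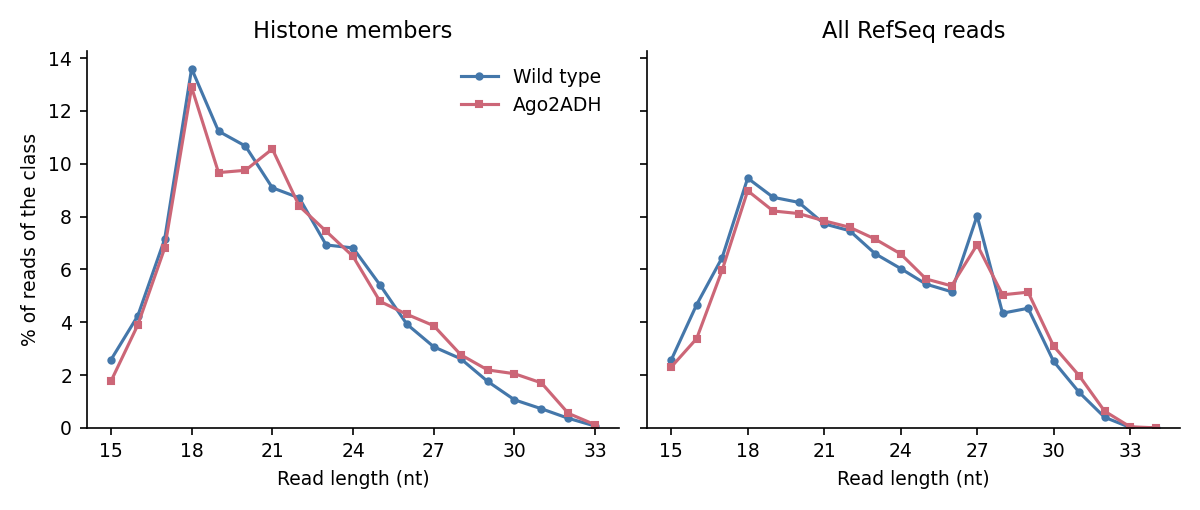
Share of reads (y, percent of the class) by read length (x, nt) for histone reads (left) and all RefSeq reads (right) in wild type and Ago2ADH. Both classes peak at 18 nt, and the Ago2ADH curve of histone reads lies above wild type from 26 nt on. A second, lower peak of RefSeq reads at 27 nt is not seen among histone reads.

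Genes of related function were read beside the histones. Replication-independent histones, most of which are made through the cell cycle from polyadenylated mRNAs, gave 597 reads in wild type and 557 in Ago2ADH (0.01, -0.16 to 0.18). None of the 6 tested was called. H3f3b, one of the genes for histone H3.3, had 112 and 111 reads, H2afy, which encodes macroH2A1, had 114 and 100, and the linker histone gene H1f0 had 94 and 106. Their median log2 ratio was -0.04, against -0.22 for the 22 replication-dependent genes. The interval of the replication-independent sum does not overlap that of the replication-dependent sum.

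Factors that process histone mRNA gave 414 and 318 reads (-0.27, -0.49 to -0.06). Of the 16 measured only 2 were tested and neither was called. Fip1l1, a subunit of the cleavage and polyadenylation factor, had 61 and 61 reads, the scaffold Sympk had 69 and 49, and Srrt, the partner of the cap-binding complex, had 40 and 29. Slbp had 42 and 24 reads, too few for a call. Factors of histone mRNA decay gave 676 and 604 reads (-0.05, -0.21 to 0.11), with 5 of 10 tested and none called. The uridylyltransferase genes Zcchc11 and Zcchc6 had 177 and 147 reads and 171 and 121 reads (-0.39, -0.74 to -0.05). Dis3l2, an exonuclease that degrades uridylated RNA, had 99 and 92. Eri1, the exonuclease that trims the end of histone mRNA, had 13 and 28 reads, too few for a call. Slbp and Eri1 were named after their values were seen.

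Genes of DNA replication mark the cells in which histone mRNAs are made. They gave 956 reads in wild type and 773 in Ago2ADH (-0.20, -0.34 to -0.06), with 5 of 32 tested, none called and a median of -0.16. Pola1, of DNA polymerase alpha, had 68 and 67 reads, the maintenance methyltransferase gene Dnmt1 64 and 53, and the helicase gene Mcm7 62 and 53. Mcm6, of the same helicase and named after its values were seen, had 69 and 32 reads (-0.999, -1.65 to -0.37), just short of a call, and was the only one of the 5 with an interval that excluded 0. Genes of mitosis gave 1460 and 1089 reads (-0.31, -0.43 to -0.20), with 3 of 19 tested and none called. Top2a, of DNA topoisomerase II alpha, had 588 and 519 reads (-0.07, but 0.32 for one-match reads scaled to all such reads), Mki67, the gene of the Ki-67 antigen, 360 and 202 (-0.72, -0.98 to -0.47), and the spindle motor gene Kif11 55 and 48. The histone sum of -0.25 lay between the values of these 2 lists of dividing cells, and the intervals of all 3 overlap.

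Of the markers of cell types in fetal liver, the erythroid and myeloid sums had intervals below 0, and the intervals of the other 4 lists included it. The 31 measured erythroid genes gave 17183 reads in wild type and 10719 in Ago2ADH (-0.57, -0.61 to -0.54). Of 19 tested, 1 was called, Spna1, the red cell spectrin gene, which fell from 125 to 50 reads (-1.21, -1.72 to -0.73). The globin gene Hba-a2 (9129 and 5225 reads) was lower without a call, but its one-match reads, scaled to all one-match reads, gave 0.31. Hbb-b2 (3413 and 2106), also a globin gene, and the mitochondrial iron carrier gene Slc25a37 (696 and 546) were lower without a call. The erythroid median was -0.50, with 12 of the 19 intervals wholly below 0 and 1 above. The latter was that of the transferrin receptor gene Tfrc (178 and 229 reads, 0.47, 0.18 to 0.76). Over all 3329 tested symbols, 0.511% were called lower, and 9.31% of intervals lay wholly below 0 and 10.3% wholly above. Markers with many reads have narrow intervals, so interval counts of the erythroid and hepatocyte lists are not directly comparable with these shares. The 30 hepatocyte genes gave 118826 and 110857 reads (0.01, -0.003 to 0.02), with 28 tested, none called and a median of -0.08. Alb, the albumin gene, had 40362 and 36365 reads (-0.04, or 0.04 scaled to RefSeq reads), the transferrin gene Trf 21899 and 25315, and the alpha-fetoprotein gene Afp 8509 and 9649. Of the 28 hepatocyte genes tested, 13 had intervals wholly below 0 and 4 wholly above. Among those below were the antitrypsin gene Serpina1b (4679 and 2268, -0.94) and the fibrinogen gene Fgb (3912 and 2771, -0.39). Tfrc, Serpina1b and Fgb were named after their values were seen.
The 15 measured myeloid genes gave 1382 and 1132 reads (-0.18), led by S100a9 (306 and 210), Ltf (189 and 144) and S100a8 (169 and 149). Megakaryocyte genes gave 177 and 156 reads (-0.07), most from Vwf (72 and 51), Itgb3 (40 and 49) and Ppbp (24 and 17). Endothelial and stellate genes gave 395 and 336 (-0.12), most from Stab2 (118 and 128), Cdh5 (38 and 28) and Col1a2 (42 and 19). Lymphoid genes gave 139 and 128 (-0.01), most from Ptprc (86 and 75), with Il7r at 12 and 17 and Rag1 at 18 and 11. No gene of these 4 lists was called. No reads were listed for the lymphoid markers Igll1, Cd3e and Cd3g, under these symbols or the other names RefSeq gives them. Histone fragments thus lay between the erythroid and the hepatocyte values, as did the sums of the other 4 lists. The part of cell composition in the histone difference was not tested. In bulk liver, fewer cells of a type and less RNA per cell cannot be told apart, nor can less mRNA and less breakdown of it into pieces of this size.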

How the data were processed

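Small RNA of 19 to 30 nt from E18.5 liver was measured in 1 wild type and 1 Ago2ADH library. Per the file headers, the authors deposited raw read counts per distinct sequence and library, and give for each how often it matches the genome, an annotation class and a description. The table held 2344366 sequences of 15 to 34 nt. The aligner, genome build, annotation versions and read trimming: not given in the sources used here.

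Counts were summed per symbol and scaled to all reads of a library (7599870 and 7046197). Log2 ratios have exact conditional binomial 95% intervals, and shares exact Clopper-Pearson 95% intervals. A feature with 100 or more reads over both libraries was called at a ratio of 0.5 or less, or 2 or more, when its interval excluded 1. The rule was tested on simulated data. Sequences were placed by exact match on GENCODE M21 (GRCm38) transcripts, 61 of the 62 symbols having a protein-coding one. GENCODE coordinates may be of another build than the authors used.

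Named genes were the 12 members with most reads, the 2 with most of each type, any called, the 3 highest and 3 lowest ratios among those with 50 or more reads, and the 3 with most reads of each other list. The members and lists were chosen with earlier results of these data known. The stem-loop, 3′ end and downstream analyses were added after the data had been seen. Some lists hold old and new symbols of 1 gene, and listed symbols without a row were counted as unmeasured, also where the gene had reads under another symbol (Ncbp1). Alternatives were other scalings (including TMM by edgeR 4.0.16), read minimums, fold limits, one-match reads, reads divided by matches and distinct reads. Python 3.11.15, scipy 1.17.1 and R 4.3.3 were used.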

Additional observations from a re-analysis of the deposited data

Results flagged for a closer look

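Stem-loop reads outside the histone rows stood out. Sequences with the histone stem-loop that the authors list in the repeat class numbered 35 in wild type and 61 in Ago2ADH, or 4.61 and 8.66 RPM, over 18 distinct sequences. Their log2 ratio was 0.91 (95% interval 0.29 to 1.55), and 75.0% of the 96 reads match the genome 10 or more times. Both counts are above the limit of 3 reads that a count of 0 allows. With 100 reads as the minimum they could not be called. Over every annotation class, stem-loop reads numbered 407 and 452 (0.26, 0.06 to 0.46).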

How the results depend on the processing

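No paired analysis was possible because there was 1 library per genotype. For the same reason no library could be left out. The cause of each shift below was not tested. The log2 ratio of the histone sum was -0.16 when scaled to RefSeq reads, -0.18 when scaled to reads outside the miRNA class, -0.17 by distinct reads and -0.32 for reads with 1 genome match scaled to all such reads. The erythroid sum under these settings was -0.49, -0.50, -0.27 and -0.48, and -0.52 when reads were divided by their matches. The hepatocyte sum was 0.095, 0.078, 0.080 and -0.049, then 0.038 when divided and 0.023 with TMM. With RefSeq scaling the erythroid median was -0.41 and the hepatocyte median 0.0057. With a minimum of 50 reads the medians were -0.52 for endothelial and stellate genes, -0.21 for mitosis, -0.41 for processing factors and 0.0068 for megakaryocytes. With a minimum of 20 reads, or none, 2 histone genes were called lower and 1 higher. With a fold limit of 1.5, 2 were called lower. The shares of all RefSeq symbols called at these settings were not computed, so these counts cannot be set against a background. For reads with 1 match, the stem-loop shares of the wild type and Ago2ADH libraries were 3.47% and 5.58%, and the coding shares 57.7% and 56.0%. By distinct reads these were 3.61% and 4.93%, and 76.4% and 74.9%. With any loop base the stem-loop share was 8.53% and 10.7%. Of the alternative values, 183 for sums, medians, places on the mRNA and counts of calls, and 459 for single genes and stem-loop reads, stayed within counting error or, for counts of calls, within 1.5 times. Outside it were 36 and 27. Depth limits single genes: 40 of 62 had under 100 reads.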
